A study of Homo sapiens with 2 samples.

Results

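Integrins are the receptors by which cells hold to the extracellular matrix, and laminins are the matrix proteins of the basement membrane to which many epithelial integrins bind. The genes of both families were followed in SW480, an established line of human colorectal adenocarcinoma. A gene was included when a probe set carried its symbol alone and that symbol named an integrin alpha chain (ITGA), an integrin beta chain (ITGB1 to ITGB8) or a laminin chain (LAMA, LAMB, LAMC). This gave 35 of the 18417 genes on the array, each with 1 probe set, of which 25 were integrin chains (17 alpha and 8 beta) and 10 were laminin chains. ITGA1 was not analysed here because its probe set carried a second gene symbol, and LAMA3 was not analysed here because no probe set in the annotation used carried its symbol.

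The 2 arrays each held total RNA of SW480 cells kept as stable Geneticin-selected transfectants, 1 array with the coding sequence of TFAP2E, an AP-2 family transcription factor, and 1 array with the empty vector. The question is which transcripts change with the introduced gene. Single clones were picked, and how many clones stand behind each array is not in the labels, so clone and transgene cannot be told apart. With 1 array per group no difference has an error or a test, the number of arrays limits the precision, and every value below is a log2 RMA value or a difference of such values, TFAP2E overexpression minus empty vector.

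An integrin is a pair of 1 alpha and 1 beta chain, each crossing the membrane. The alpha chain sets much of the choice of ligand, and the beta chain tail binds talin and kindlin and, through them, actin. A laminin is a trimer of 1 alpha, 1 beta and 1 gamma chain that assembles inside the cell before it is secreted. In the gut, laminins lie in the basement membrane beneath the epithelial cells of the crypts and villi. The integrin of ITGA6 and ITGB4 anchors these cells to laminins at hemidesmosomes, where keratin filaments attach.

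The TFAP2E probe set itself read 6.81 with TFAP2E overexpression and 6.77 with the empty vector, so the array values did not show the introduced gene, and all directions rest on the labels. A gene counted as measured when the higher of its 2 values reached 5.55, the median of all probe sets, and as dim otherwise. Markers of colon epithelium were mostly measured. Of 10 such markers 9 passed, among them EPCAM (11.14 and 11.20 on the TFAP2E and empty vector arrays) and KRT18 (12.55 and 12.57), while KRT20 was dim. The markers were not all alike on both arrays, since villin (VIL1) read 6.22 and 4.94 (1.28, past 2-fold and dim with the empty vector) and the cadherin CDH1 read 6.38 and 7.08 (-0.71). The differences of the 11548 measured genes had a median of 0.04, and 95% lay between -0.37 and 0.47.

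Of the 35 integrin and laminin genes 17 were measured, 11 integrin and 6 laminin chains, and 18 were dim. None of the 17 differed by 2-fold, a size reached by 0.199% of all measured genes, and none by 1.5-fold, reached by 1.5%. At a difference of 0.32 on the log2 scale, a smaller rule of size, 4 of the 17 passed, where 11.7% of all measured genes did. Only ITGA7 passed in the higher direction, where 7.9% of all measured genes did, and ITGB2, LAMB2 and ITGB1 passed in the lower direction, where 3.8% did. With 17 genes these counts rest on very few members, and no test was possible.

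**Figure D1:**
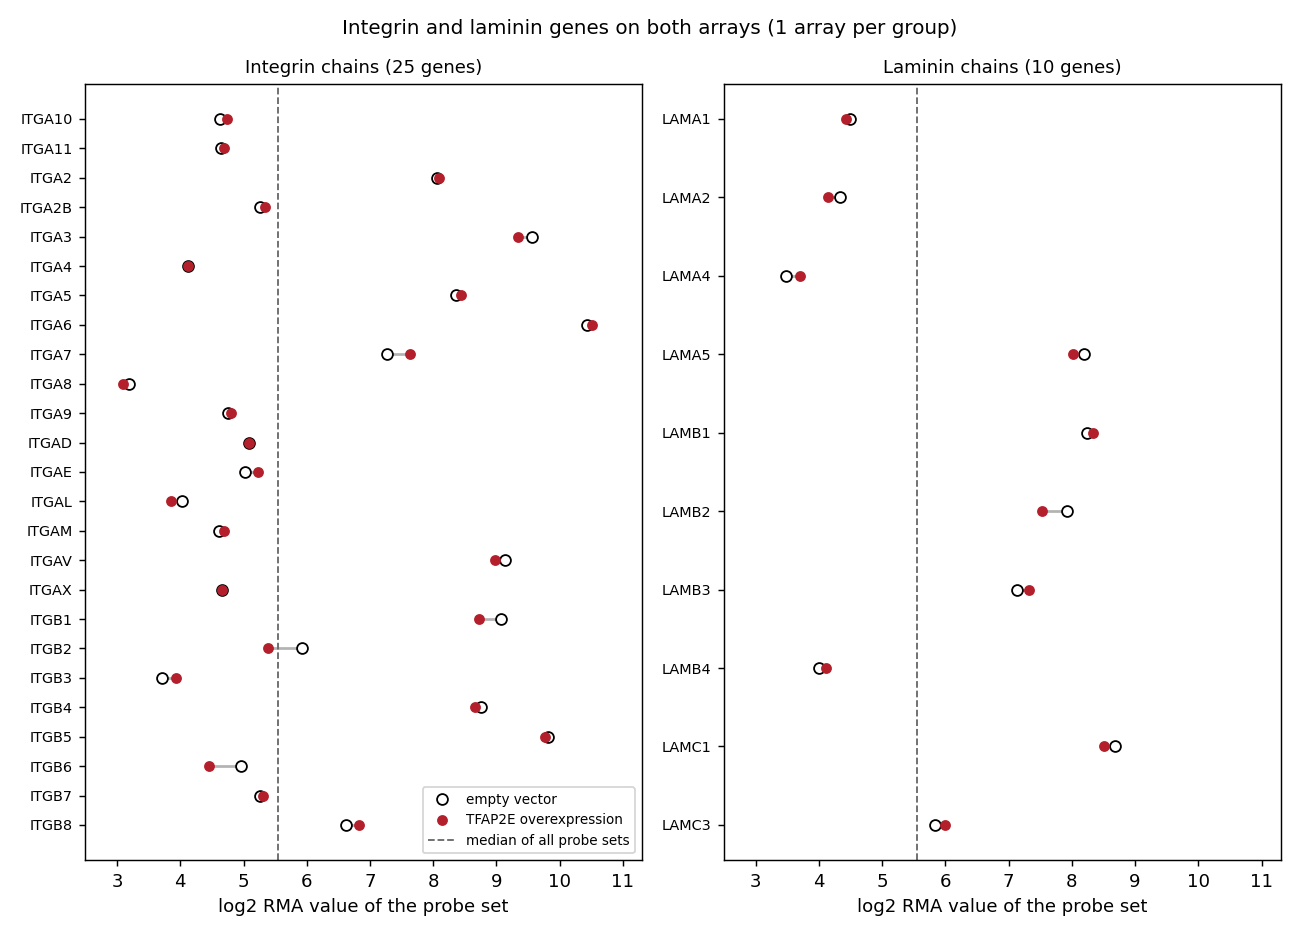
The log2 RMA value of each integrin gene (left) and laminin gene (right) is plotted for the empty vector array (open circles) and the TFAP2E overexpression array (filled circles), with the dashed line at the median of all probe sets, 5.55. For most genes the circles nearly coincide, and the widest gaps are those of ITGB2 (5.93 to 5.38) and ITGB6 (4.96 to 4.45); values of different genes come from different probes and are not compared with each other.

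The laminin-binding integrin chains were all measured and did not share a direction. ITGA6, whose product pairs with that of ITGB4 in hemidesmosomes and with that of ITGB1 elsewhere, read 10.51 on the TFAP2E array and 10.43 with the empty vector, a difference of 0.08. ITGB4, the beta chain with the long cytoplasmic tail that binds plectin, read 8.66 and 8.76 (-0.10). The hemidesmosomal pair therefore differed little and in opposite directions, and ITGA6 lay 0.18 above ITGB4 in its difference. ITGA3, the other main laminin receptor of epithelia, read 9.34 and 9.56 (-0.21). ITGA7, best known as the laminin receptor of skeletal muscle, read 7.63 and 7.27 (0.35, 1.28-fold higher) and had the highest difference of all 17 measured members, at rank 708 from the highest of 11548 genes. The differences of ITGA7 and ITGA3 lay 0.56 apart.

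ITGB1, the beta chain that pairs with the most alpha chains, was lower. It read 8.72 on the TFAP2E array and 9.07 with the empty vector, a difference of -0.35 (1.27-fold lower) at rank 360 from the lowest. All 6 measured alpha chains are known partners of ITGB1, and each differed less downward or differed upward. ITGAV and ITGA3 were the closest to it, 0.19 and 0.14 above its difference, and ITGA2, ITGA5, ITGA6 and ITGA7 lay 0.38, 0.42, 0.43 and 0.70 above it. Among the 6 measured alpha chains 4 were higher and 2 lower (median 0.05), and among the 5 measured beta chains 1 was higher and 4 lower (median -0.10).

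The 5 measured collagen-binding and RGD-binding chains differed by -0.16 to 0.20. ITGA2, the alpha chain of the epithelial collagen receptor, read 8.08 and 8.05 (0.03) on the TFAP2E and empty vector arrays, and its sign turned with the loess trend removed. ITGA10 (0.11) and ITGA11 (0.05), the other collagen-binding chains, were dim on both arrays. Among chains of the receptors that recognise the RGD sequence of fibronectin and vitronectin, ITGA5 of the fibronectin receptor read 8.44 and 8.37 (0.08). ITGAV, which pairs with several beta chains and activates latent TGF-beta with some of them, read 8.97 and 9.14 (-0.16). Its partners were not alike, since ITGB5 read 9.77 and 9.82 (-0.05) and ITGB8 read 6.83 and 6.62 (0.20). ITGB6, the epithelial ITGAV partner induced in wounds and carcinomas, was dim on both arrays, at 4.45 and 4.96, and its difference of -0.51 was the lowest among the 18 dim members. ITGB3 (3.92 and 3.72), ITGA8 (difference -0.10) and ITGA2B (0.08) were dim as well.

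Of the 9 leukocyte and alpha4/alpha9 chains only ITGB2 was measured, and it had the lowest difference of all members. ITGB2, the common beta chain of the leukocyte integrins, read 5.38 on the TFAP2E array and 5.93 with the empty vector, a difference of -0.55 (1.46-fold lower) at rank 86 from the lowest. The value on the TFAP2E array was itself dim, and counted down to the filter value alone the difference was -0.38. ITGB2 lay among the dimmest 2887 measured genes, whose differences had a standard deviation of 0.252, against 0.197 for the brightest 2887. Its alpha partners ITGAL (3.85 and 4.03), ITGAM (4.69 and 4.62), ITGAX and ITGAD were dim on both arrays. ITGAX and ITGAD had the same value on both arrays to all deposited decimals, which occurred for 6.67% of dim genes. The remaining chains of this group, ITGA4, ITGA9, ITGB7 and ITGAE, were dim too, with differences of 0.01, 0.04, 0.06 and 0.21.

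Leukocyte markers are given beside ITGB2. Of 12 leukocyte and platelet markers on the array 4 were measured, CD68 (0.57), GP9 (0.31), NKG7 (0.18) and CD14 (-0.19), and the pan-leukocyte marker PTPRC read 2.74 on both arrays. The mean over all 12 was 4.63 on the TFAP2E array and 4.54 on the empty vector array. The defining markers CD3E, CD3D and MS4A1 were dim, and the part of such cells in the ITGB2 difference was not tested. Of 12 fibroblast and smooth muscle markers 4 were measured, ACTA2 (7.04 and 6.71, 0.33), DES (0.07), COL1A1 (0.05) and COL1A2 (-0.09), with DCN and LUM dim. Of 8 endothelial markers 2 were measured, CLDN5 (6.47 and 6.60, -0.13) and ENG (0.00), with PECAM1 and CDH5 dim.

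Among the laminins, the only measured alpha chain was LAMA5, the main alpha chain of mature epithelial basement membranes. It read 8.02 on the TFAP2E array and 8.19 with the empty vector, a difference of -0.16. LAMA1, LAMA2 and LAMA4, chains of embryonic, muscle and vascular basement membranes, were dim on both arrays, with values no higher than 4.50 and differences of -0.06, -0.19 and 0.22. LAMC1, the gamma chain of most laminins, read 8.51 and 8.69 (-0.17), close to LAMA5, with which it assembles. LAMC3 read 6.0 and 5.84 (0.15).

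The laminin beta chains went different ways. LAMB2 read 7.53 on the TFAP2E array and 7.93 with the empty vector, a difference of -0.40 (1.32-fold lower) at rank 227 from the lowest, and LAMB1 read 8.33 and 8.23 (0.10). Both chains can join LAMA5 and LAMC1 in a trimer, 1 in place of the other, and their differences lay 0.50 apart. LAMB3, the beta chain of the anchoring laminin of skin and gut epithelium, read 7.32 and 7.14 (0.18). LAMB4 was dim, at 4.12 and 4.0.

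**Figure D2:**
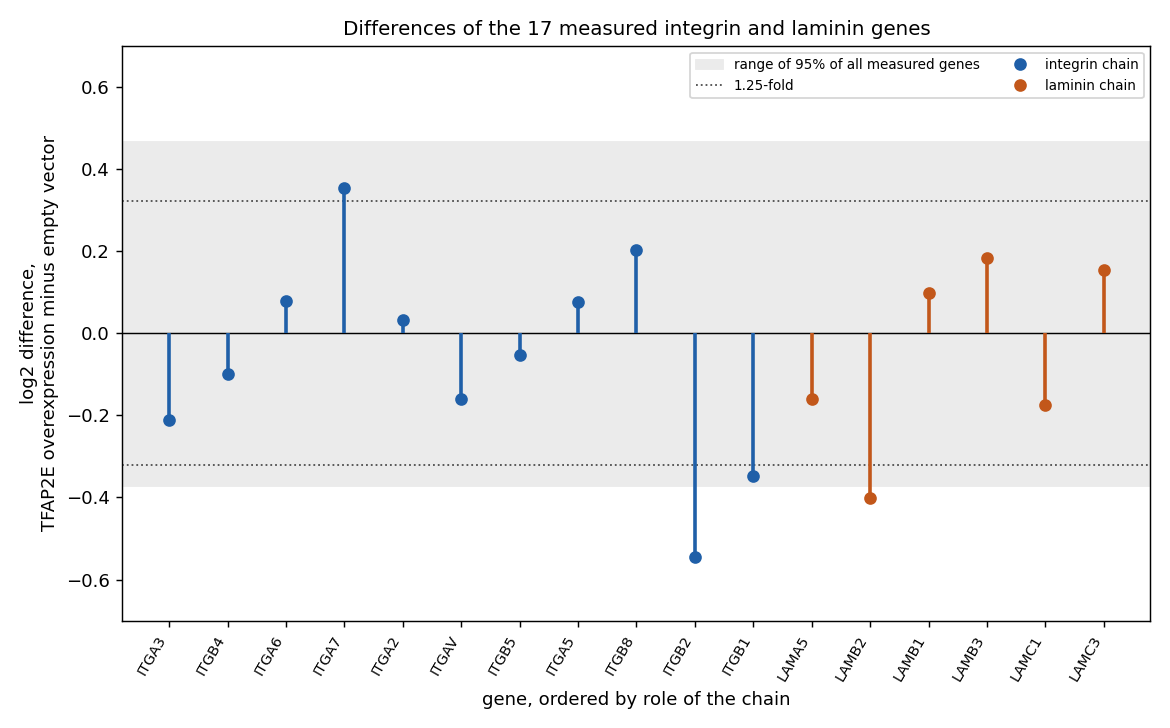
Log2 differences (TFAP2E overexpression minus empty vector) are plotted for the 17 measured genes, integrin chains in blue and laminin chains in orange, ordered by role; the grey band holds 95% of all measured genes and the dotted lines mark 0.32 in either direction. ITGB2 and LAMB2 lie below the band, at -0.55 and -0.40, and no gene lies above it.

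As classes, the receptor and the laminin chains had similar median differences. Their levels come from different probes and are not set against each other. Of the 11 measured integrin chains 5 were higher and 6 lower, with differences from -0.55 to 0.35 and a median of -0.05. Of the 6 measured laminin chains 3 were higher and 3 lower, from -0.40 to 0.18 with a median of -0.03. Over all 11548 measured genes 6831 were higher and 4558 lower, with a median of 0.04. The class medians differed by 0.02 (laminin minus integrin), and the laminin differences lay wholly inside the range of the integrin differences. This gap turned to -0.11 when only genes reaching the 75th percentile of all probe sets were kept, which left out LAMB3, LAMC3, ITGB2 and ITGB8.

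The promoters of these genes were searched for the AP-2 recognition sequence, since the introduced factor belongs to that family. The 250 bases before the RefSeq start site were used (GRCh38.p14), and the motif was GCCNNNGGC, which reads the same on both strands. A promoter was on hand for 24 of the 35 members and for 12 of the 17 measured ones. Among those 12, the motif occurred in 4, ITGB1, ITGA2, LAMA5 and LAMC1, against 29.2% of 9283 promoters of measured genes and 19.7% of all 27305 promoters. Of the 6 lower members with a promoter 3 held it (ITGB1, LAMA5 and LAMC1), and of the 6 higher members 1 (ITGA2). The median share of G and C was 74.6% in the lower and 70.2% in the higher members. The same split by direction was not made over all measured genes, so it has no background beside it. The promoters below are those of the lower members ITGB1, LAMB2 and LAMC1 and of the higher member LAMB1, shown because ITGB1 and LAMB2 had the largest differences among measured members with a promoter and because the LAMC1 product assembles with that of either beta chain. Capitals mark the motif, and each sequence runs 5′ to 3′ on the gene's strand.
ITGB1 (chr10:32958231-32958480, minus strand): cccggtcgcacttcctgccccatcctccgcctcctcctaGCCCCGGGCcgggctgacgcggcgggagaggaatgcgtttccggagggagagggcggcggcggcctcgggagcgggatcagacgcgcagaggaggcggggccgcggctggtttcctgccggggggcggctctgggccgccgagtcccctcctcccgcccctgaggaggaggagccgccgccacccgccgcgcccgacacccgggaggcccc
LAMB2 (chr3:49133051-49133300, minus strand): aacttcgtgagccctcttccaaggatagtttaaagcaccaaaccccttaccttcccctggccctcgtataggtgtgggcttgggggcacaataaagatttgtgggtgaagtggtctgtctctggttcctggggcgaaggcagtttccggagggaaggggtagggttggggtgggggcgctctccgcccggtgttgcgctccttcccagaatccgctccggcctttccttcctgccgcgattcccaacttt
LAMB1 (chr7:108003162-108003411, minus strand): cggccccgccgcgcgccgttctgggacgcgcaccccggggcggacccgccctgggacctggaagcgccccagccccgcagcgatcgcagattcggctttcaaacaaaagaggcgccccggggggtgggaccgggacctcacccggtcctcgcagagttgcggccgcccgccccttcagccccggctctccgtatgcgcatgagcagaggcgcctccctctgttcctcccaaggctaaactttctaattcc
LAMC1 (chr1:183023170-183023419, plus strand): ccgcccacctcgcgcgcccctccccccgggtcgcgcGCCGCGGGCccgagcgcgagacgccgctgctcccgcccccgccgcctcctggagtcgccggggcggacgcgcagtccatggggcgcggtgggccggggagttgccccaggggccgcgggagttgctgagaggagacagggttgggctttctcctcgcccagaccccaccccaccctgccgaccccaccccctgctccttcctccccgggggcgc

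The motif began 211 bases before the start of ITGB1 and 214 bases before that of LAMC1, and these letters were not in the windows of LAMB2 and LAMB1. The windows of ITGB1 and LAMC1 were richer in G and C (78.4% and 79.6%) than those of LAMB1 (70.4%) and LAMB2 (58.4%), and the part of base composition in these matches was not tested. A match is a stretch of letters and was not measured as a binding site.

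Because the cells came from picked clones, each member was set beside the 20 nearest measured genes on its chromosome, 10 on each side. Of the 17 measured members 12 lay below the median of their neighbours, 8 of 11 integrin and 4 of 6 laminin chains, against 50.1% of 11536 placed genes. ITGB8 and LAMB1, both on chromosome 7, lay among genes that were higher on the TFAP2E array. The neighbours of ITGB8 had a median of 0.34, with 18 of 20 higher, and those of LAMB1 a median of 0.27, with 17 of 20 higher. Relative to them ITGB8 lay at -0.14 and LAMB1 at -0.17, so both changed sign, as did ITGA2, from 0.03 to -0.08. ITGB5, on chromosome 3, moved from -0.05 to -0.22 beside neighbours with a median of 0.17. LAMC3, on chromosome 9, lay the other way, at 0.15 beside neighbours with a median of -0.11. The part of a regional shift in these differences was not tested.

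The 4 measured members with the largest differences kept their direction relative to their neighbours. The neighbours of ITGB1 had a median of 0.01, those of LAMB2 of 0.08, those of ITGB2 of -0.09 and those of ITGA7 of 0.00. Relative to them the differences were -0.36 for ITGB1, -0.48 for LAMB2, -0.46 for ITGB2 and 0.36 for ITGA7. The gap between LAMB1 and LAMB2 narrowed from 0.50 to 0.31.

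**Figure D3:**
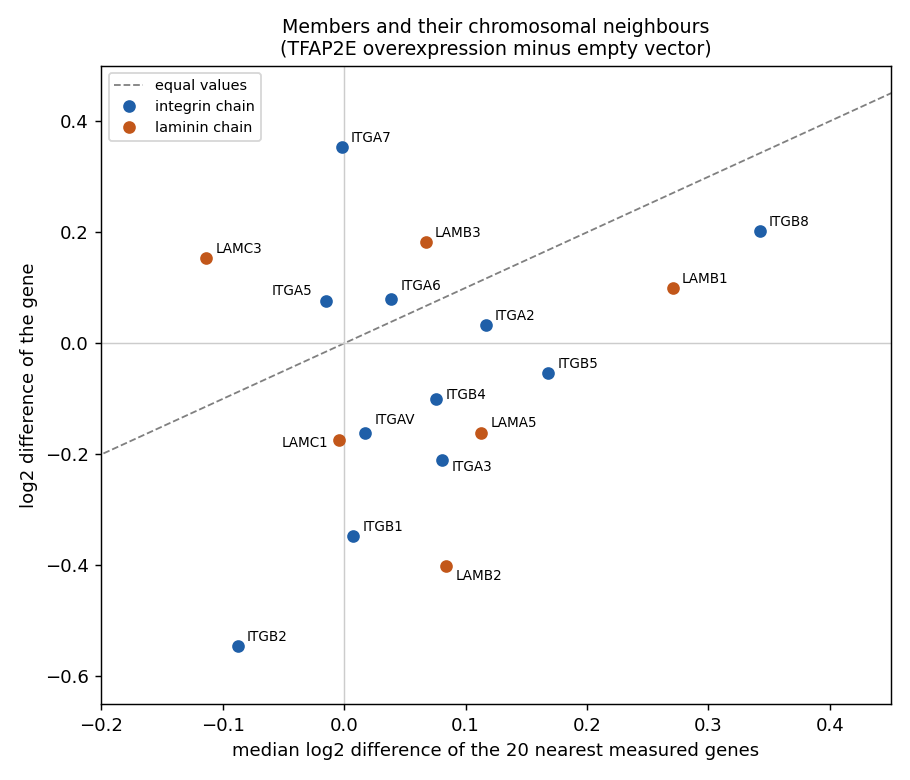
The log2 difference of each measured member (vertical axis) is plotted against the median log2 difference of its 20 nearest measured genes (horizontal axis), with integrin chains in blue, laminin chains in orange and a dashed line where both are equal. ITGB8 and LAMB1 stand to the right, beside neighbours at 0.34 and 0.27, and ITGB2, LAMB2 and ITGB1 lie far below the line.

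Genes that work with these chains were followed in 5 lists. Of the 120 listed genes 111 had a probe set under their symbol alone, and the others, FLNA among them, were not analysed here. Among 27 measured adaptors and kinases that join integrins to actin and signalling, 16 were higher and 11 lower, with a median of 0.06 and none at 1.5-fold. PTK2, which encodes focal adhesion kinase, read 8.26 on the TFAP2E array and 7.81 on the empty vector array (0.45), ITGB3BP, which binds the tail of ITGB3, differed by 0.41 and the tensin TNS3 by 0.25. KANK1, a talin-binding protein, differed by -0.43, the actin crosslinker ACTN1 by -0.27 and vinculin (VCL) by -0.24. Talin itself (TLN1, 0.07), kindlin-1 (FERMT1, 0.16), kindlin-2 (FERMT2, -0.16) and integrin-linked kinase (ILK, -0.06), chosen after their values were seen, lay nearer 0.

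Of 16 listed hemidesmosome genes and non-integrin laminin receptors, 12 had a probe set under their symbol alone. COL17A1, RPSA, SDC4 and dystroglycan (DAG1) did not and were not analysed here. Among the 10 measured genes, 4 were higher and 6 lower (median -0.03). The basal keratin KRT5 differed by -0.43, the tetraspanin CD82, which associates with integrins, by -0.41, and BCAM, a receptor for LAMA5, by -0.30. At the other end lay the plakin DST at 0.09, the integrin-bound tetraspanin CD151 at 0.06 and KRT14 at 0.05. KRT5 read 11.92 on the TFAP2E array and 12.34 with the empty vector, and KRT14 read 6.68 and 6.63. The specificity of the KRT5 probe set was not tested. BCAM and its ligand chain LAMA5 (-0.16) were both lower, and both lay within the range that held 95% of all measured genes. Of 7 measured basement membrane partners 2 were higher and 5 lower (median -0.03). The heparan sulfate proteoglycans agrin (AGRN, -0.22), perlecan (HSPG2, -0.19) and COL18A1 (-0.18) were lowest. COL4A2, a chain of the collagen network of the basement membrane, differed by 0.16, the epithelial basement membrane protein FRAS1 by 0.09 and the laminin-binding nidogen NID1 by -0.01.

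The widest differences lay among other integrin ligands. Of 21 measured genes 10 were higher and 11 lower (median -0.01), and 4 passed 1.5-fold, 1 higher and 3 lower. Over all 5 lists these were 4 of 72 genes, where 1.5% of all measured genes passed. Thrombospondin 1 (THBS1), a matrix protein that binds integrins and activates TGF-beta, read 6.56 on the TFAP2E array and 7.53 on the empty vector array (-0.97, 1.96-fold lower). Tenascin C (TNC), a ligand of ITGAV and ITGA9 integrins, read 5.77 and 6.70 (-0.93, 1.91-fold lower). Both matrix ligands were thus just short of 2-fold lower, while their receptor chains ITGAV and ITGB1 differed far less. CDH1, the epithelial cadherin that ITGAE binds, read 6.38 and 7.08 (-0.71). TGFBI, a secreted integrin ligand induced by TGF-beta, was the highest at 10.57 and 9.96 (0.61, 1.53-fold higher), followed by fibronectin (FN1, 0.42), the ligand of the ITGA5 receptor, and ICAM2 (0.31), a ligand of ITGB2 integrins.

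Among 7 measured proteases and modifiers that act on laminins or on their receptors, 5 were higher and 2 lower (median 0.09), none past 1.5-fold. The urokinase receptor PLAUR differed by 0.37, B4GAT1, which builds the laminin-binding sugar of dystroglycan, by 0.28, and urokinase (PLAU) by 0.24. The metalloprotease MMP15 differed by -0.12, BMP1, which trims laminin chains, by -0.05 and the sheddase ADAM10 by 0.09. MMP7, MMP2 and MMP9 were dim. The membrane metalloprotease MMP14, named after its value was seen, differed by 0.09.

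**Figure D4:**
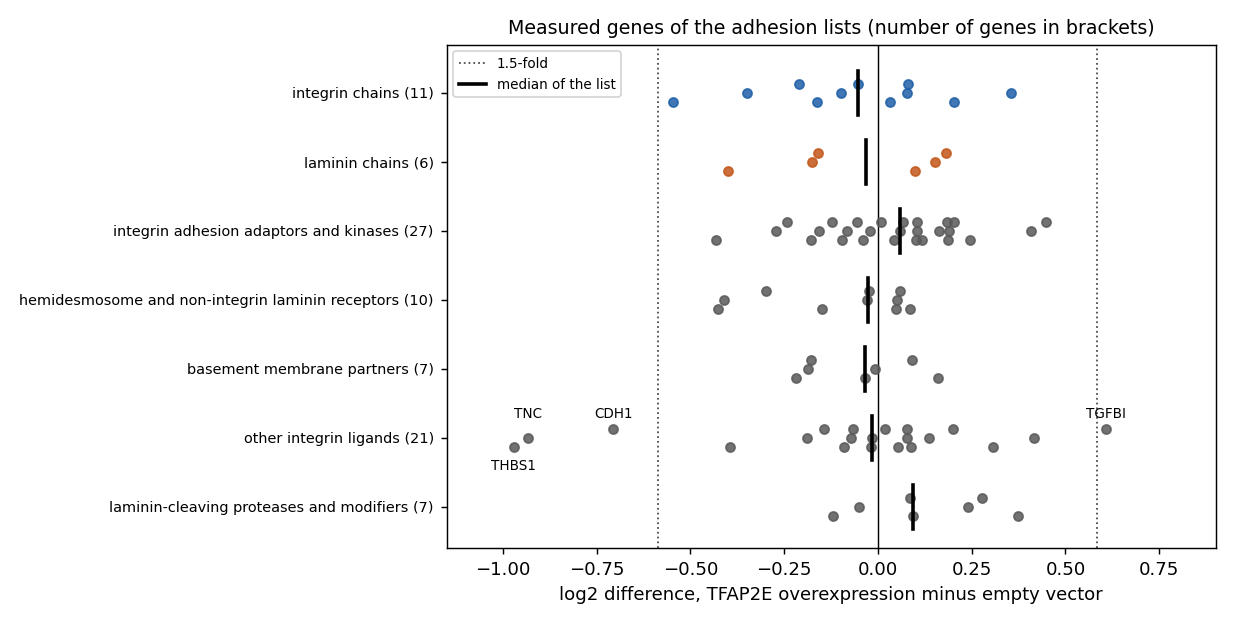
Each point is the log2 difference (TFAP2E overexpression minus empty vector) of a measured gene in the integrin and laminin classes and the 5 partner lists, with a black bar at the median of each list and dotted lines at 1.5-fold. The list medians lie between -0.05 and 0.09, and only THBS1, TNC, CDH1 and TGFBI, all among other integrin ligands, pass a dotted line.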

How the data were processed

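Gene expression was measured on 2 Affymetrix arrays, 1 per group. The authors deposited log2 values per probe set, and the submitters' processing notes name RMA. Neither its version nor a genome build is given in the sources used here. RMA sets the arrays to nearly 1 distribution, so a change of all transcripts in 1 direction would not appear.

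Of 33297 probe sets 19460 had exactly 1 symbol in the platform annotation, 1754 had several and 12083 had none. Symbols were updated through RefSeq (GRCh38.p14), with 19429 found. For genes with several probe sets the brightest was used. No further scaling was done. The rules of size were 2-fold, 1.5-fold and 0.32 on the log2 scale. Gene order and promoters came from RefSeq. The differences and neighbour medians were tested on simulated data, in Python 3.11.15 with pandas 2.3.3.

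The members and lists were chosen with earlier results of these data known. Every member was named, and in each partner list the 3 highest, the 3 lowest and any gene past 1.5-fold. Alternatives covered scaling, filters, probe set averaging, a floor, and subtraction of neighbouring genes.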

Additional observations from a re-analysis of the deposited data

How the results depend on the processing

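No member passed 2-fold or 1.5-fold under any of the alternatives tried. Of 85 values of the 17 measured members under 5 alternatives, 83 moved by less than 0.219, the standard deviation over all genes. The other 2 were ITGB8 (-0.14) and LAMB1 (-0.17) after subtraction of neighbouring genes. The dim LAMB4 moved likewise, to -0.16. In 4 of the 85 the sign changed, for ITGB8, LAMB1 and ITGA2 after subtraction of neighbouring genes and for ITGA2 with the loess trend removed. The integrin median of -0.05 became -0.18 and the laminin median of -0.03 became -0.17 after subtraction of neighbouring genes. With the 75th percentile filter the laminin median was -0.17, the gap between the classes was -0.11, and 2 in place of 4 partner genes passed 1.5-fold, a count that was 3 with quantile normalization and with the loess trend removed. That filter also moved the median of the basement membrane partners from -0.03 to -0.20. With no filter the median of the proteases and modifiers moved from 0.09 to 0.22, the integrin median was 0.03, the laminin median 0.02 and the gap -0.01. With the loess trend removed 0 members in place of 1 passed the rule of 0.32 in the higher direction, since ITGA7 then lay just under it. The count of 12 members below their neighbours was also 12 with 5 and with 20 genes on each side, both chosen after seeing the data. No paired analysis was possible because only 1 array was made for each condition. Differences of dim genes have no known error here.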
